A study of Mus musculus with 8 samples.

Results

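The genes described here are 33 genes of fatty acid uptake and lipid droplets, read out in mouse liver. They were chosen by symbol, as genes that bring fatty acids into cells, bind and activate them, coat and build lipid droplets, or empty them again, and all 33 were found among the 19642 genes of the count table. They comprise 6 uptake genes, 5 genes of fatty acid and acyl-CoA binding, 4 acyl-CoA synthetases, 8 droplet coat genes, 4 genes of droplet formation, 5 lipolysis genes and the nuclear receptor gene Pparg. The question put to them was whether their mRNA levels differ between N-LKO and WT livers, and where the fatty acid translocase Cd36 stands against the other uptake genes.

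Liver RNA came from 4 WT and 4 N-LKO mice, 1 library per mouse, and was sequenced after removal of rRNA. All 8 were male C57BL6 mice fed a chow diet (CD) and housed several per cage. The sample titles and the legend of the chow data give 8 weeks of diet and the treatment labels give 16 weeks, so its length is uncertain, and the age at collection is not given in the sources used here. N-LKO mice lack NgBR, the protein encoded by Nus1, in the liver, through loxP-flanked NgBR alleles and a Cre driven by the albumin promoter, which is active in hepatocytes. Whether the WT mice carried loxP alleles or Cre is not stated. NgBR is a subunit of cis-prenyltransferase, the enzyme that makes the precursor of dolichol, the lipid carrier of N-glycosylation.

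Fatty acids reach hepatocytes from the circulation through CD36 and the fatty acid transport proteins, are carried in the cytosol by fatty acid binding proteins, and are activated to acyl-CoA by long-chain acyl-CoA synthetases. Acyl-CoA is then burned in mitochondria and peroxisomes or esterified to triglyceride, which is stored in droplets budding from the endoplasmic reticulum under a coat of perilipins and CIDE proteins. Lipases return the stored fatty acids, and nuclear receptors of the PPAR family, for which fatty acids are ligands, control many of these genes in the liver.

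Total counts ranged from 15430519 to 18412201 in WT livers and from 14688404 to 18585412 in N-LKO livers. Levels are given as CPM, that is counts scaled to a common library size after correction by TMM, and differences as the log2 fold change of N-LKO against WT from edgeR's quasi-likelihood test, with its standard error (SE). A gene was called at a Benjamini-Hochberg adjusted p under 0.05 over the 14214 genes tested. Nus1 was at 82.0, 90.4, 90.5 and 89.7 CPM in WT replicates 1 to 4 and at 33.3, 36.2, 38.7 and 38.7 CPM in N-LKO replicates 1 to 4. It fell by 1.26 on the log2 scale (SE 0.0748, edgeR adjusted p = 3.06e-05), and every N-LKO liver was below every WT liver. These counts cover the whole gene and so include any transcript that remains outside the deleted exon. Of 8 hepatocyte marker genes, such as Alb and Ttr, edgeR, DESeq2 and limma-voom called 0, none passed an unadjusted p under 0.05, and their median log2 fold change was 0.0095. In whole liver RNA, fewer cells of a type and less RNA per cell cannot be told apart.

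Cd36 rose in N-LKO livers, and it was the only member that edgeR called. All 33 members passed the filter on low counts, so 1 of 33 was called, against 1.04% of all genes tested. In the upward direction that is 1 member against a background of 0.823%, and in the downward direction 0 members against 0.218%. At an unadjusted p under 0.05, a looser threshold that 12.8% of all genes passed, 4 members were higher in N-LKO livers (background 6.87%) and 7 were lower (background 5.9%). DESeq2, which called 2.61% of all genes, called 5 members, of which Cd36, Lpl and Acsl4 were higher (background 1.74%) and Fabp2 and Fitm1 lower (background 0.865%). Limma-voom, which called 0.886% of all genes, called 1 member as higher, Cd36 (background 0.682%), and 0 as lower (background 0.204%). The fitted log2 fold change was above 0 for 11 members and below 0 for 22, with a median of -0.15 against -0.0033 over all genes tested. Over all genes tested it was above 0 for 7004 and below 0 for 7210.

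**Figure D1:**
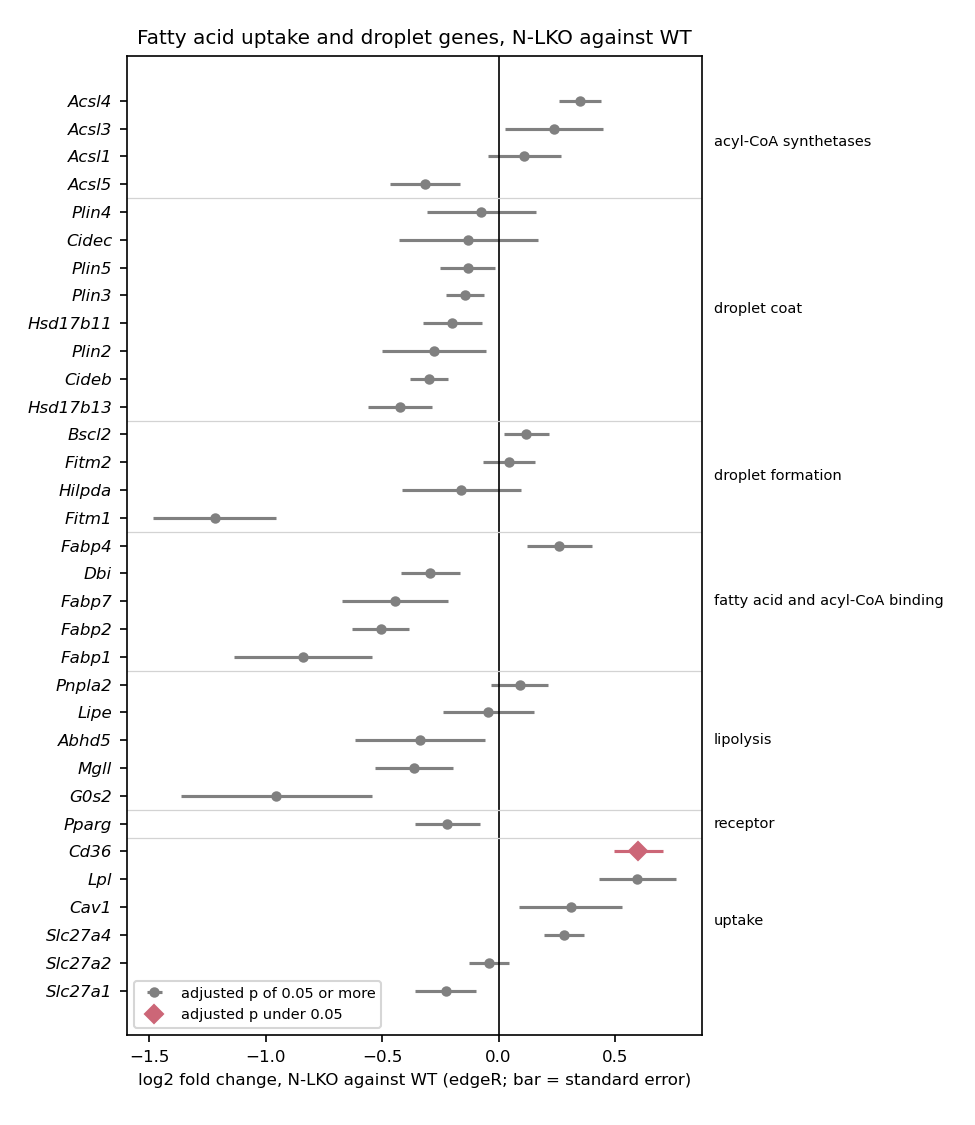
Log2 fold change of N-LKO against WT for the 33 genes, grouped by role, with bars of 1 standard error from the edgeR fit (4 livers per genotype). Cd36, at 0.60, is the single gene marked as called, and all 8 droplet coat genes have estimates below 0, of which none was called.

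The uptake genes included the 2 largest upward differences among the members. CD36 is a membrane receptor that takes up long-chain fatty acids and modified lipoproteins. Cd36 (ENSMUSG00000002944, chr5:17781690-17888801 in GRCm38, minus strand) was at 37.3, 43.2, 37.8 and 51.8 CPM in WT replicates 1 to 4 and at 67.5, 67.3, 61.2 and 61.9 CPM in N-LKO replicates 1 to 4. The lowest N-LKO liver was above the highest WT liver, which was WT replicate 4, and the N-LKO livers lay closer together than the WT livers. The log2 fold change was 0.60 (SE 0.105, edgeR adjusted p = 0.0230), which is 1.51-fold. With 4 against 4 mice, the exact two-sided permutation test over mice gave p = 0.0286, the smallest it can give. With 1 mouse left out, the call was kept without WT replicate 4 or N-LKO replicate 4 and lost in the other 6 of 8 fits (edgeR adjusted p up to 0.0677), while the log2 fold change stayed between 0.54 and 0.71.

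Fatty acid transport proteins are membrane proteins that couple uptake of fatty acids to their activation. The 3 among the members had smaller estimates than Cd36, and edgeR called none of the 3. Slc27a5 (FATP5), outside the members and not used as a peer of Cd36, averaged 365 CPM in WT and 388 CPM in N-LKO livers. Its groups overlapped (log2 fold change 0.088, SE 0.0812, edgeR adjusted p = 0.716). Slc27a1 (FATP1) was at 15.1, 19.3, 18.6 and 16.6 CPM in WT replicates 1 to 4 and at 16.8, 16.4, 14.8 and 11.4 CPM in N-LKO replicates 1 to 4. Its groups overlapped, with the lowest value in N-LKO replicate 4 (log2 fold change -0.23, SE 0.131, edgeR adjusted p = 0.519). Slc27a2 (FATP2), the main very-long-chain acyl-CoA synthetase and transporter of hepatocytes, was at 2480.5 to 2698 CPM in WT livers and at 2446 to 2545 CPM in N-LKO livers. The spread over all 8 livers was narrow and the groups overlapped (log2 fold change -0.042, SE 0.0857, edgeR adjusted p = 0.892). Slc27a4 (FATP4) was at 20.7, 23.4, 25.2 and 23.9 CPM in WT replicates 1 to 4 and at 31.0, 28.1, 27.2 and 26.8 CPM in N-LKO replicates 1 to 4. Every N-LKO liver was above every WT liver, by a small margin, and the gene was not called (log2 fold change 0.28, SE 0.0857, edgeR adjusted p = 0.184).

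Set against each of these 3 transport proteins within the same liver, Cd36 was higher in N-LKO mice. The log2 ratio of Cd36 to Slc27a1 averaged 1.28 ± 0.266 (SD, n = 4) over WT and 2.12 ± 0.202 (SD, n = 4) over N-LKO livers, a difference of 0.85. For Slc27a2 the ratio averaged -5.92 ± 0.254 (SD, n = 4) over WT and -5.27 ± 0.0671 (SD, n = 4) over N-LKO livers, a difference of 0.65. For Slc27a4 it averaged 0.86 ± 0.215 (SD, n = 4) over WT and 1.19 ± 0.0561 (SD, n = 4) over N-LKO livers, a difference of 0.33. In all 3 ratios the 4 N-LKO livers were above every WT liver, and each gave p = 0.0286 in the exact two-sided permutation test, the smallest possible and also the value after Benjamini-Hochberg adjustment over the 3. These ratios do not depend on how the libraries were scaled, but they share Cd36 and so are not independent of each other. Nor are they independent of the separation of Cd36 itself, which gave the same p in that test. For Slc27a4 the gap between the groups was the smallest, since WT replicate 4, at 1.11, lay just below N-LKO replicate 1, at 1.12. The remaining uptake genes, Lpl and Cav1, were added as peers after their values had been seen. Against Lpl the log2 ratio of Cd36 averaged 0.60 ± 0.188 (SD, n = 4) over WT and 0.62 ± 0.366 (SD, n = 4) over N-LKO livers, a difference of 0.026 within the spread (exact permutation p = 0.886). Against Cav1 the difference was 0.30, with overlap (exact permutation p = 0.257). Adjusted over all 5 ratios, p was 0.0476 for each transport protein, 0.886 for Lpl and 0.321 for Cav1 in the same exact test.

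**Figure D2:**
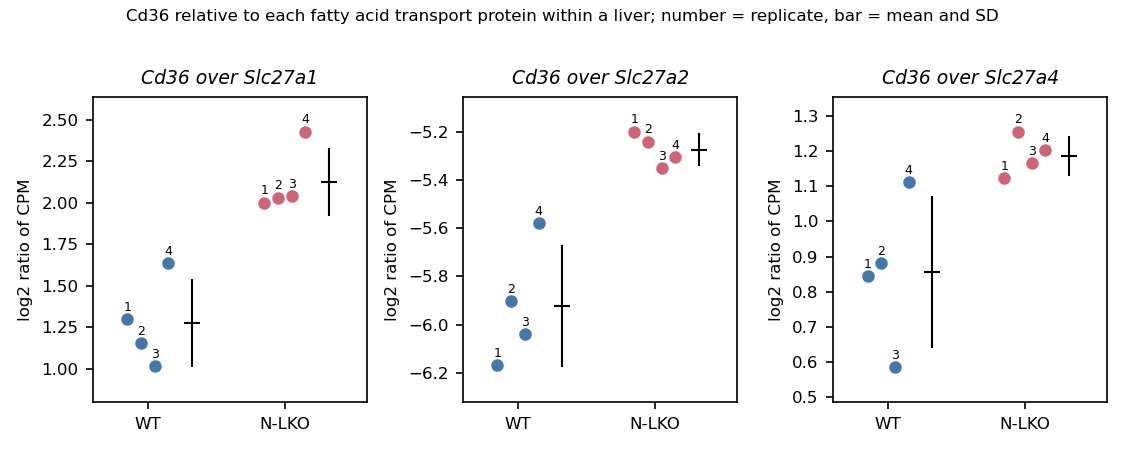
Log2 ratio of Cd36 to Slc27a1, Slc27a2 and Slc27a4 (y axis, from log2 CPM) in each WT and N-LKO liver, with replicate numbers beside the points and the mean and SD of 4 livers beside each group. The groups do not overlap in any panel, and the mean difference is 0.85, 0.65 and 0.33 from left to right.

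The remaining uptake genes were lipoprotein lipase and caveolin 1. Lpl, the lipase that releases fatty acids from circulating triglyceride, was at 26.9, 32.7, 22.0 and 31.1 CPM in WT replicates 1 to 4 and at 39.0, 36.4, 57.9 and 37.3 CPM in N-LKO replicates 1 to 4. The groups did not overlap, and N-LKO replicate 3 stood well above the rest. The log2 fold change was 0.60 (SE 0.166) and the gene was not called by edgeR (adjusted p = 0.152), though it was by DESeq2 (adjusted p = 0.0375). Leaving out N-LKO replicate 3 brought the estimate to 0.41. That same liver also had the highest level of some genes of other cell types, with 105 CPM of Spp1 against 16.1 to 68.0 CPM in the other livers, 28.5 CPM of Lum against 6.63 to 20.7 CPM, and 15.7 CPM of Col1a1 against 2.60 to 8.11 CPM. Not all markers of these cells peaked there. Dcn was at 202 CPM and Reln at 51.8 CPM, against 237 and 57.8 CPM in N-LKO replicate 2. Mmp12 was at 3.05 CPM, against 3.46 CPM in N-LKO replicate 1. Cav1, the scaffold protein of caveolae, was at 2.13 to 3.85 CPM in WT and at 3.12 to 5.18 CPM in N-LKO livers, with overlap (log2 fold change 0.31, SE 0.221, edgeR adjusted p = 0.613).

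Cd36 is also expressed by macrophages and endothelial cells, and Lpl by macrophages, so markers of the other cells of the liver were read in the same libraries. Of the 8 listed genes of lipid-associated macrophages, 6 were tested and edgeR called 3 as higher (Gpnmb, Mmp12 and Spp1), and the summed level of the list was 218 to 242 CPM in WT and 269.9 to 347 CPM in N-LKO livers. Of 9 stellate cell and fibroblast genes tested, 2 were called as higher (Lum and Col1a1), with summed levels of 199.9 to 290.1 CPM in WT and 284 to 399 CPM in N-LKO livers. Of 4 cholangiocyte genes tested, 2 were called as higher (Epcam and Spp1), with sums of 23.3 to 45.01 CPM in WT and 52.1 to 132.2 CPM in N-LKO livers. DESeq2 called 3, 4 and 3 genes of these lists, in the same order, and limma-voom 2, 1 and 0, all as higher. Over all genes tested, edgeR called 0.823% as higher, DESeq2 1.74% and limma-voom 0.682%. Spp1 is on both the macrophage and the cholangiocyte list, so their sums are not independent. Its mean was 23.9 CPM in WT and 68.1 CPM in N-LKO livers. Most of the macrophage sum was Ctsd, with means of 183 CPM in WT and 199 CPM in N-LKO livers, which edgeR did not call. Elsewhere, edgeR called 0 of 8 sinusoidal endothelial genes, 0 of 7 Kupffer cell genes and 0 of 5 erythroid genes, and 0 were called by DESeq2 or limma-voom. At an unadjusted p under 0.05 from edgeR, 2 sinusoidal genes and 1 Kupffer cell gene were lower (background 5.9%) and 1 erythroid gene was higher (background 6.87%). All 7 Kupffer cell genes had estimates below 0 (median log2 fold change -0.19), against 7210 of the 14214 genes tested. Of 8 vascular endothelial genes each of the 3 tools called 1, Cd34, as higher. The adipocyte markers measured, Cfd and Cidea, summed to at most 1.02 CPM in any liver. The other 5 listed genes, with Adipoq and Plin1 among them, were absent from the count table. The smallest sum over all mice of any gene in that table was 10 counts. The part of these cell types in the levels of Cd36 and Lpl was not tested.

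The promoter windows of Cd36 and Fabp1 are shown because Cd36 carries the called difference and Fabp1, the most abundant member per length, the opposite estimate, and because both windows hold a sequence close to the PPAR response element. That element, a direct repeat spaced by 1 base (DR1), was searched as AGGTCANAGGTCA on both strands, where N is any base, in the RefSeq windows of GRCm38.p6 that run from 250 bases before to 50 bases after a gene's start. Windows were given for 31 of the 33 members, all but Fabp4 and Lpl. Capitals mark the best match within each window.
Cd36, chr5:17835847-17836146, minus strand: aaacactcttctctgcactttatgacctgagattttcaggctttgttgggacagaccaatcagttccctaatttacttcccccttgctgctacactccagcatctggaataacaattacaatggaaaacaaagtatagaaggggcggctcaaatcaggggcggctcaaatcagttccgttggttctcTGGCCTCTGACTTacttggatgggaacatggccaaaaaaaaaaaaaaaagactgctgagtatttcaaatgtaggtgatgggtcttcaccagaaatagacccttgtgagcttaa
Fabp1, chr6:71199629-71199928, plus strand: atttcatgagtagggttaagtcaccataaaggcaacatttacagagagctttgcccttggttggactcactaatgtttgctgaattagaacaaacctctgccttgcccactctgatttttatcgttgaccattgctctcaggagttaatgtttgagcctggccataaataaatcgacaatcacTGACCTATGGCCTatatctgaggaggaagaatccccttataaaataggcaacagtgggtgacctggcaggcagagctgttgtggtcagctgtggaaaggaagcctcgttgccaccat

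The Fabp1 match, which starts 67 bases before the start, has 1 mismatch, and the Cd36 match, which starts 63 bases before it, has 2. Both read from the other strand of the gene. The Cd36 window lies inside the annotated span of the gene, so starts further upstream were not searched. A match with at most 2 mismatches was present in 4 of the 31 members (12.9%), against 4.4% of 27025 genes with a window, and a match with at most 1 was present in 1 of 31 (3.23%), against 0.644%. The other matches were in Plin2 and Cav1. The Cav1 match was in a window inside the annotated gene, chr6:17307390-17307689, while the window at the annotated start had 5 mismatches at best. It reads from the gene's own strand, whereas the Fabp1, Cd36 and Plin2 matches read from the other strand. The Cav1 letters are thus in the opposite orientation. The 4 matches, written 5′ to 3′ along each gene's own strand, are as follows.
Fabp1: TGACCTATGGCCT
Cd36: TGGCCTCTGACTT
Plin2: GGACCCCTGACCT
Cav1: GGGTCATAGGTCT

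Among these 4 genes the log2 fold changes were -0.84 for Fabp1, 0.60 for Cd36, -0.28 for Plin2 and 0.31 for Cav1, and of the 4 only Cd36 was called. A match is a description of letters in this window and does not show that a factor binds there.

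Binding proteins had mostly lower estimates in N-LKO livers. EdgeR called 0 of 5 (background 1.04%) and limma-voom 0 (background 0.886%). At an unadjusted p under 0.05 from edgeR, 3 were lower (background 5.9%). DESeq2 called 1 as lower, Fabp2 (background 0.865%). Fabp1, the liver fatty acid binding protein, was at 1739, 1368, 3468 and 2976 CPM in WT replicates 1 to 4 and at 951, 1909, 1163 and 1314 CPM in N-LKO replicates 1 to 4. WT replicates 3 and 4 stood above all other livers, while N-LKO replicate 2 exceeded WT replicates 1 and 2, so the groups overlapped. The log2 fold change was -0.84, the SE was wide at 0.296, and the gene was not called (edgeR adjusted p = 0.251). Fabp2, the intestinal form of the same family, was at 142, 139, 178 and 163 CPM in WT replicates 1 to 4 and at 88.5, 131.6, 106 and 112 CPM in N-LKO replicates 1 to 4. All N-LKO livers were below all WT livers, with N-LKO replicate 2 closest to them (log2 fold change -0.51, SE 0.124, edgeR adjusted p = 0.101). DESeq2 called Fabp2 as lower (adjusted p = 0.00972).

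The other binding proteins differed less. Dbi, the acyl-CoA binding protein, was at 292 to 415 CPM in WT and at 254 to 351 CPM in N-LKO livers (log2 fold change -0.29, SE 0.128, edgeR adjusted p = 0.375). Fabp7, the brain form, was low in liver, with 2.88 to 3.53 CPM in WT and 1.47 to 3.10 CPM in N-LKO livers (log2 fold change -0.44, SE 0.227, edgeR adjusted p = 0.459). Fabp4, the form of adipocytes and macrophages, was at 6.82 to 8.24 CPM in WT and at 7.48 to 10.6 CPM in N-LKO livers, the only estimate above 0 in this group (0.26, SE 0.142, edgeR adjusted p = 0.488). All 3 had overlapping groups.

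Acyl-CoA synthetases trap fatty acids in the cell as acyl-CoA. Acsl4, which prefers arachidonic acid and other polyunsaturated fatty acids, was at 84.9, 90.1, 71.6 and 72.2 CPM in WT replicates 1 to 4 and at 101, 109, 102 and 94.1 CPM in N-LKO replicates 1 to 4. Every N-LKO liver was above every WT liver, and the gene was called by DESeq2 (adjusted p = 0.0360) but not by edgeR (log2 fold change 0.35, SE 0.0907, adjusted p = 0.119). Acsl1, the most abundant of the 4, was at 1733, 1649, 2519 and 2452 CPM in WT replicates 1 to 4 and at 1898 to 2453 CPM in N-LKO livers. As for Fabp1, WT replicates 3 and 4 were the high ones among the WT livers, and the groups overlapped (log2 fold change 0.11, SE 0.157, edgeR adjusted p = 0.827). Acsl5, an isoform of the endoplasmic reticulum and mitochondria, was at 281 to 416 CPM in WT and at 243 to 338 CPM in N-LKO livers (log2 fold change -0.32, SE 0.151, edgeR adjusted p = 0.417). Acsl3, the isoform that moves to nascent droplets, was at 11.98 to 23.5 CPM in WT and at 17.6 to 23.5 CPM in N-LKO livers (log2 fold change 0.24, SE 0.212, edgeR adjusted p = 0.701).

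**Figure D3:**
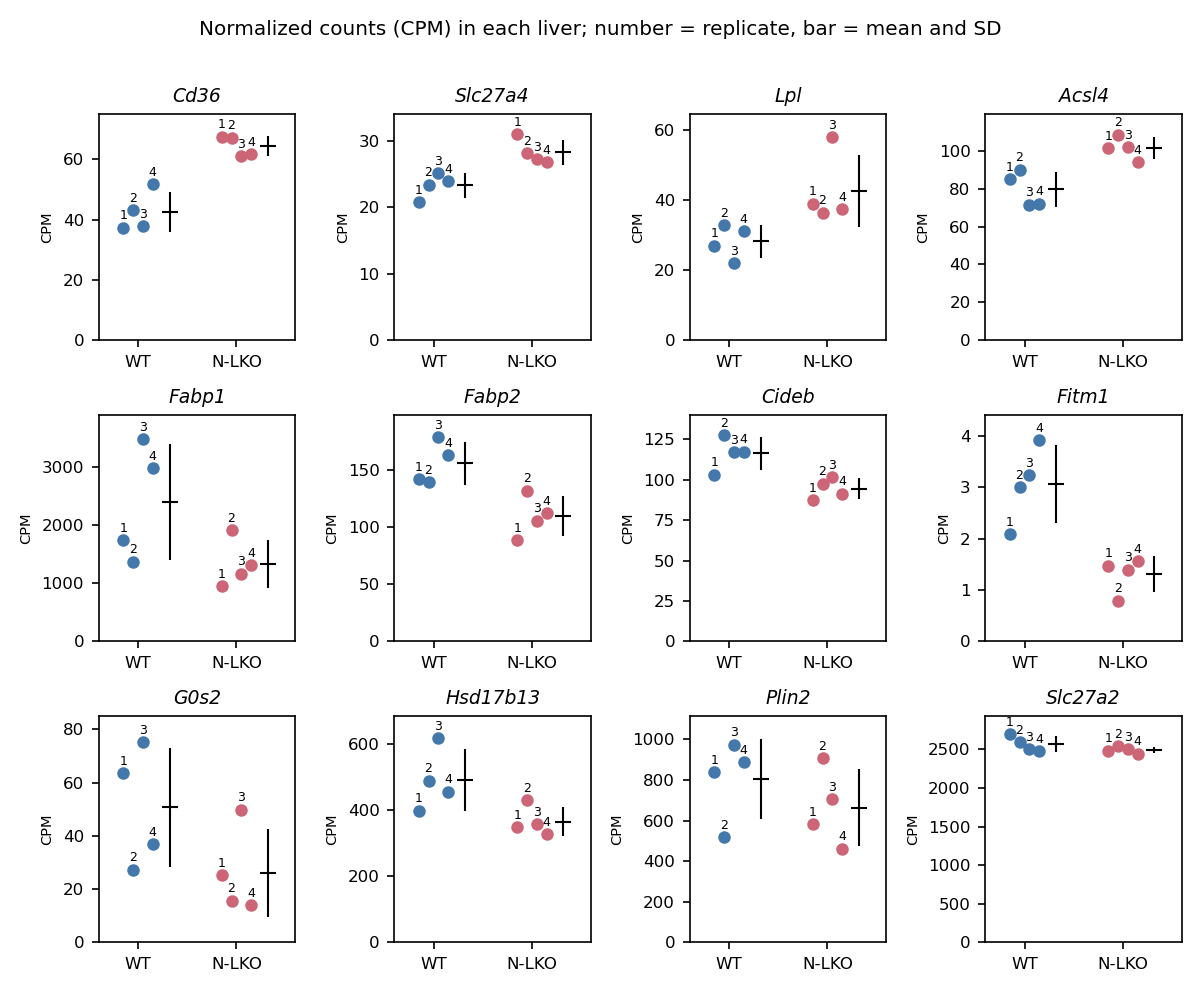
CPM of 12 of the genes in each liver (y axes from 0), with replicate numbers beside the points and the mean and SD of 4 livers beside each group. Cd36, Slc27a4, Lpl and Acsl4 do not overlap between genotypes and lie higher in N-LKO livers, Fabp2, Cideb and Fitm1 do not overlap and lie lower, and WT replicates 3 and 4 are the highest livers for Fabp1.

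Without overlap between the genotypes were 7 members in all, 4 higher in N-LKO livers (Cd36, Slc27a4, Lpl and Acsl4) and 3 lower (Fabp2, Cideb and Fitm1). Over all genes tested, 7.52% did not overlap, with 4.2% higher and 3.32% lower.

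All 8 droplet coat genes had estimates below 0 (median log2 fold change -0.17), against 7210 of the 14214 genes tested. EdgeR, DESeq2 and limma-voom each called 0 of the 8 (backgrounds 1.04%, 2.61% and 0.886%). At an unadjusted p under 0.05 from edgeR, 2 were lower (background 5.9%). Without WT replicate 3 the edgeR estimate was 0.13 for Plin4 and -0.018 for Plin5. Perilipins cover the droplet surface and control access of lipases. Plin2, the main perilipin of hepatocytes, was at 839, 519, 975 and 888 CPM in WT replicates 1 to 4 and at 582, 909, 706 and 461 CPM in N-LKO replicates 1 to 4. The spread within each genotype was as wide as the difference (log2 fold change -0.28, SE 0.224, edgeR adjusted p = 0.660). For Plin3, Plin4 and Plin5, which coat small or nascent droplets, droplets of adipocytes and droplets of oxidative tissues, the log2 fold changes were -0.15, -0.073 and -0.13, all with overlap and with adjusted p from edgeR of at least 0.504.

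CIDE proteins enlarge droplets by passing lipid from smaller to larger ones. Cideb, the hepatocyte form, was at 103, 128, 117 and 117 CPM in WT replicates 1 to 4 and at 87.4, 97.6, 102 and 91.3 CPM in N-LKO replicates 1 to 4. Every N-LKO liver was below every WT liver by a small margin, and the gene was not called (log2 fold change -0.30, SE 0.0829, edgeR adjusted p = 0.147). Of its exon length, 76.3% is shared with Nop9 on the other strand, and whether the counting used strand is not stated, so reads of the pair may not be separated. Nop9 itself was at 16.0 to 18.5 CPM in WT and at 14.8 to 18.0 CPM in N-LKO livers. Cidec, the form induced in steatosis, was at 32.3 to 64.5 CPM in WT and at 22.3 to 59.6 CPM in N-LKO livers (log2 fold change -0.13, SE 0.299, edgeR adjusted p = 0.905).

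The hydroxysteroid dehydrogenases HSD17B13 and HSD17B11 sit on the hepatic droplet surface. Hsd17b13 was at 398, 489, 617 and 455 CPM in WT replicates 1 to 4 and at 348, 429, 356 and 327 CPM in N-LKO replicates 1 to 4. Only N-LKO replicate 2 reached into the WT range (log2 fold change -0.42, SE 0.136, edgeR adjusted p = 0.206). Hsd17b11 was at 231 to 337 CPM in WT and at 220.2 to 273 CPM in N-LKO livers (log2 fold change -0.20, SE 0.126, edgeR adjusted p = 0.558).

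Of the 4 genes of droplet formation, Fitm1 had the lowest estimate of all 33 members. EdgeR called 0 of the 4, with 1 lower at an unadjusted p under 0.05 (background 5.9%). DESeq2 called 1 as lower (background 0.865%) and limma-voom called 0. FITM proteins act at the endoplasmic reticulum, where triglyceride is partitioned into budding droplets. Fitm1, the form known from muscle, was at 2.08, 3.00, 3.23 and 3.92 CPM in WT replicates 1 to 4 and at 1.47, 0.792, 1.39 and 1.56 CPM in N-LKO replicates 1 to 4. Every N-LKO liver was below every WT liver, on 39 to 71 counts per WT liver and 12 to 26 counts per N-LKO liver. The log2 fold change was -1.22 (SE 0.265) and the edgeR adjusted p was 0.0627, while DESeq2 called the gene (adjusted p = 0.00455) and so did edgeR without WT replicate 1 (adjusted p = 0.0385). Its exons share 11.2% of their length with the antisense gene Gm15932, which was at 0.276 to 0.761 CPM in WT livers and 0.265 to 0.475 CPM in N-LKO livers.

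Fitm2, the widely expressed form, was more abundant per length, at 18.3 against 3.15 CPM per kilobase of exon in WT livers. Its levels were 66.4 to 80.2 CPM in WT and 59.7 to 87.4 CPM in N-LKO livers (log2 fold change 0.044, SE 0.112, edgeR adjusted p = 0.914). Bscl2, which encodes seipin, the protein at the junction of the endoplasmic reticulum and droplets, was at 14.0 to 18.4 CPM in WT and at 16.6 to 17.4 CPM in N-LKO livers (log2 fold change 0.12, SE 0.0974, edgeR adjusted p = 0.663). Hilpda, a hypoxia-induced inhibitor of the main triglyceride lipase, was at 2.31 to 3.37 CPM in WT and at 1.56 to 3.56 CPM in N-LKO livers (log2 fold change -0.16, SE 0.254, edgeR adjusted p = 0.852). The groups overlapped for all 3.

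Among the 5 lipolysis genes edgeR, DESeq2 and limma-voom called 0, and 1 was lower at an unadjusted p under 0.05 from edgeR (background 5.9%). Pnpla2 encodes ATGL, the lipase of the first step, and was at 91.2, 96.7, 80.1 and 72.96 CPM in WT replicates 1 to 4 and at 101, 86.2, 102 and 73.3 CPM in N-LKO replicates 1 to 4 (log2 fold change 0.091, SE 0.122, edgeR adjusted p = 0.818). G0s2, an inhibitor of ATGL, was at 63.5, 27.3, 75.3 and 36.8 CPM in WT replicates 1 to 4 and at 25.1, 15.6, 49.8 and 14.0 CPM in N-LKO replicates 1 to 4. The spread was wide in each genotype, from the lowest liver at 14.0 CPM to the highest at 75.3 CPM. The log2 fold change was -0.96 (SE 0.411, edgeR adjusted p = 0.363), and the groups overlapped. Abhd5, which encodes the ATGL activator CGI-58, was at 22.3, 10.9, 23.5 and 23.3 CPM in WT replicates 1 to 4 and at 11.1, 19.8, 10.9 and 21.8 CPM in N-LKO replicates 1 to 4. In each genotype its levels separated into high and low livers, with WT replicate 2 and N-LKO replicates 1 and 3 low (log2 fold change -0.34, SE 0.280, edgeR adjusted p = 0.672).

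Mgll, the monoglyceride lipase, was at 285 to 473 CPM in WT and at 252 to 343 CPM in N-LKO livers (log2 fold change -0.36, SE 0.168, edgeR adjusted p = 0.402). Lipe, the hormone-sensitive lipase, was at 6.79 to 8.87 CPM in WT and at 5.16 to 9.82 CPM in N-LKO livers, with an estimate near 0 (log2 fold change -0.045, SE 0.195, edgeR adjusted p = 0.956). Pparg, the receptor known for driving Cd36 and droplet genes in fatty liver, was at 8.38 to 9.71 CPM in WT and at 5.74 to 9.02 CPM in N-LKO livers (log2 fold change -0.22, SE 0.138, edgeR adjusted p = 0.555). All 3 overlapped between genotypes.

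**Figure D4:**
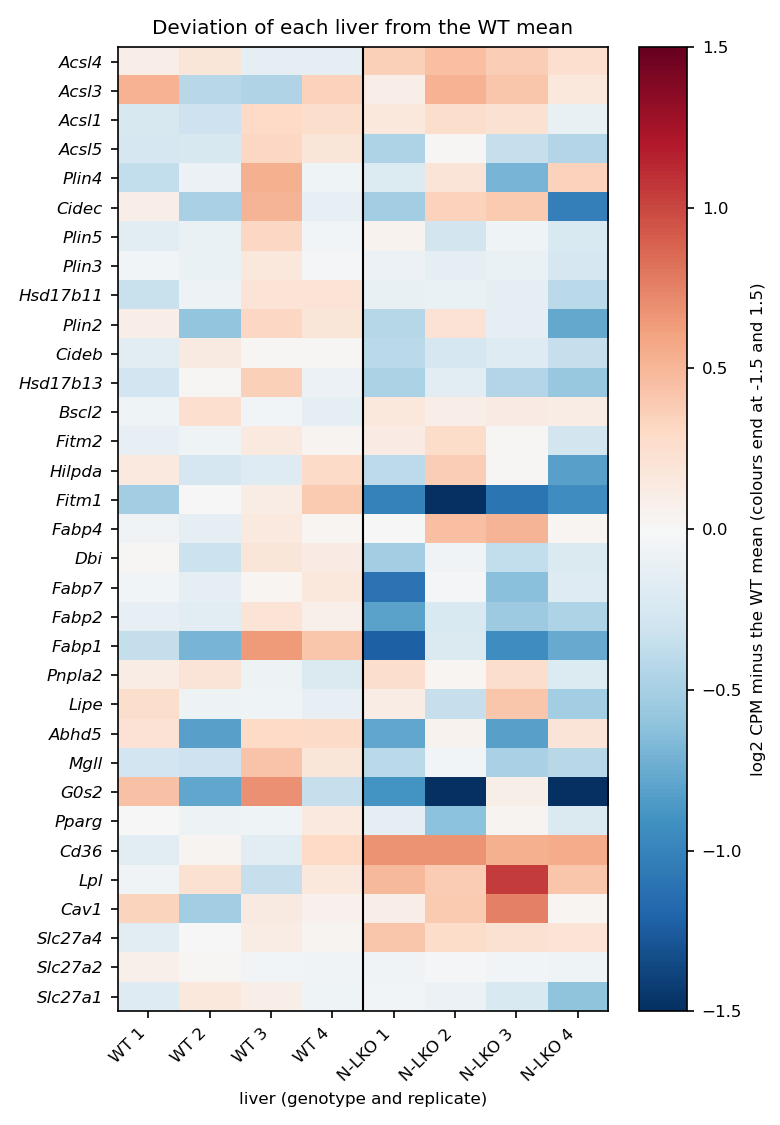
Deviation of each liver's log2 CPM from the WT mean for the 33 genes (rows) in the 8 livers (columns), with red above and blue below the WT mean and colours ending at 1.5 either way. Cd36 and Lpl are above the WT mean in all 4 N-LKO livers, Fitm1 is below it in all 4, and Slc27a2 is close to it in every liver.

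Per length, the members spanned a wide range of levels. Length was taken over all annotated exons of a gene, merged over its transcripts. It can exceed that of the transcript present in liver, so the ranks are approximate. CPM per kilobase of annotated exon was highest for Fabp1, at 4318 ± 1801 (SD, n = 4) for WT and 2412 ± 744 (SD, n = 4) for N-LKO livers, and next for Slc27a2, at 684 ± 26.6 (SD, n = 4) and 664 ± 10.9 (SD, n = 4). Dbi, Plin2 and Hsd17b13 followed in WT livers at 258, 229 and 227 CPM per kilobase, a difference between them within their SDs. Cd36 was in place 18 of 33 in both genotypes, at 11.9 ± 1.86 (SD, n = 4) CPM per kilobase for WT and 18.0 ± 0.949 (SD, n = 4) for N-LKO livers. Among the uptake genes it thus stood far below Slc27a2 in either genotype and above Slc27a4 (5.28 in WT), Slc27a1 (2.98), Lpl (2.69) and Cav1 (0.91), the last of which was the lowest member of all.

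**Figure D5:**
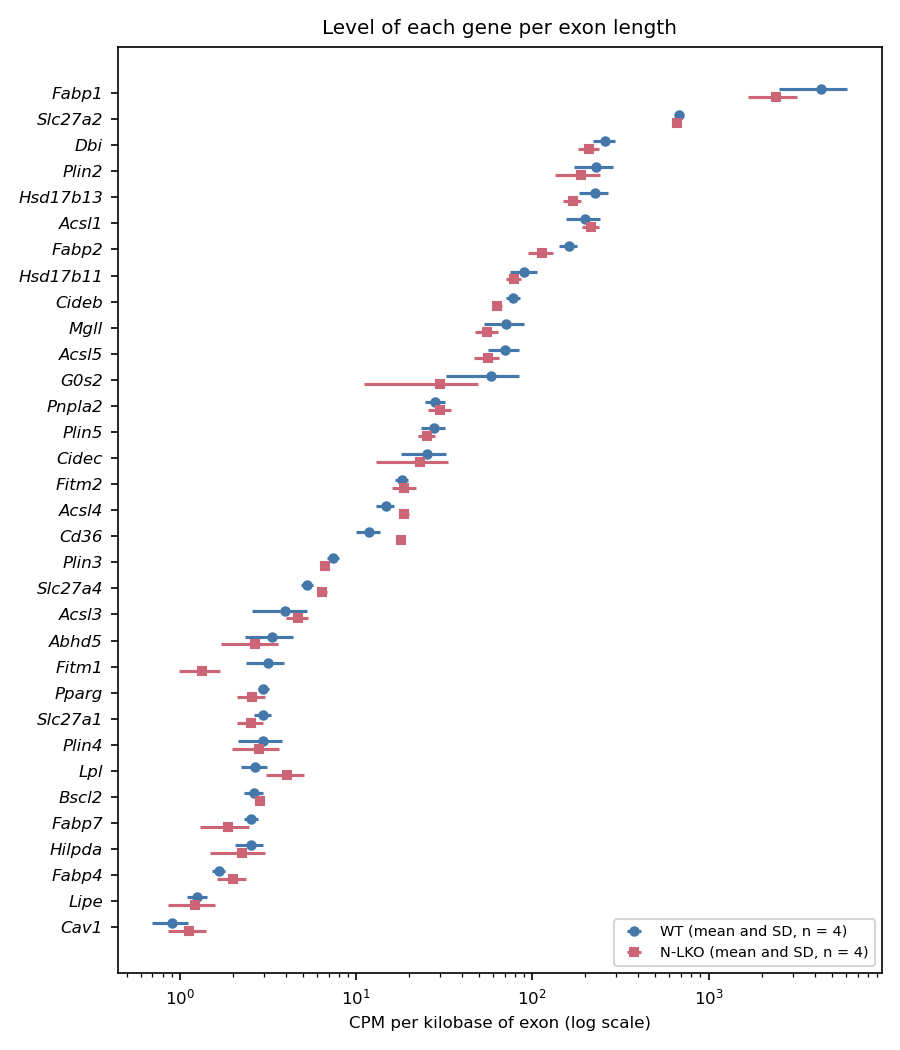
Mean level of each of the 33 genes in CPM per kilobase of exon (log axis) with the SD of 4 livers, WT as blue circles and N-LKO as red squares, ordered by the WT level. Fabp1 is highest at 4318 in WT livers, Cav1 lowest at 0.91, and Cd36 moves from 11.9 to 18.0.

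Other genes of the same pathways were taken from lists written by function. Of the 57 tested, edgeR and limma-voom each called 1 (backgrounds 1.04% and 0.886%), while DESeq2 called 3 (background 2.61%). At an unadjusted p under 0.05 from edgeR, 6 were higher (background 6.87%) and 4 lower (background 5.9%). Of 13 further uptake, binding and activation genes tested, edgeR, DESeq2 and limma-voom called 0. An unadjusted p under 0.05 was reached by 2, and the lowest p was that of Vldlr, the very low density lipoprotein receptor, at 2.94 to 5.44 CPM in WT and at 1.45 to 2.58 CPM in N-LKO livers (log2 fold change -0.74, SE 0.258, edgeR adjusted p = 0.244). Of 12 genes of triglyceride synthesis tested, the same 3 tools called 0, with 1 at an unadjusted p under 0.05. That was Gpat3, an acyltransferase of the first step of glycerolipid synthesis (log2 fold change 0.58, SE 0.197, edgeR adjusted p = 0.232). Of 16 other droplet proteins and lipases, edgeR and limma-voom called 0 and DESeq2 called 1. An unadjusted p under 0.05 was reached by 4, and the lowest p was that of Nsdhl, a sterol synthesis enzyme found on droplets (log2 fold change 0.61, SE 0.152, edgeR adjusted p = 0.105).

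Of 16 PPAR target genes outside the members, edgeR and limma-voom each called 1 as lower (backgrounds 0.218% and 0.204%). DESeq2 called 1 as lower (background 0.865%) and 1 as higher (background 1.74%). The lower gene was Fgf21 in each, the gene of a fasting hormone secreted by the liver, at 5.02, 4.06, 5.07 and 4.86 CPM in WT replicates 1 to 4 and at 3.06, 2.38, 2.39 and 2.10 CPM in N-LKO replicates 1 to 4. It fell by 0.93 on the log2 scale (SE 0.162, edgeR adjusted p = 0.0224), and the groups did not overlap. The higher gene was Cyp4a31, a fatty acid hydroxylase named here after its values were seen, at 75.4 to 109 CPM in WT and at 106 to 155.7 CPM in N-LKO livers, with overlap (log2 fold change 0.63, SE 0.137, edgeR adjusted p = 0.0627). It belongs to a family of close paralogs, among which reads may be split. Estimates were below 0 for 12 of these 16 genes, with a median of -0.15, and above 0 for 4.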

How the data were processed

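Per the labels, total liver RNA was sequenced from 8 mice on CD, 4 of each genotype, and samples were grouped by the genotype label. The authors deposited expected counts, estimated reads per gene that are not scaled to depth, of which 51.227% of genes had decimals in at least 1 mouse. The methods of the study name a TrueSeq small RNA kit, single-end reads, in-house trimming, TopHat2 and cuffdiff, while the submitters' processing notes name STAR, Partek and mm9. Start and strand of 97.185% of genes matched GENCODE M21 on GRCm38, which is used for coordinates. Which program gave the counts, with which annotation and whether with strand, is not given in the sources used here. Library choice and counting that ignores strand could change the levels of short or overlapping genes.

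Counts were rounded. Genes were filtered by edgeR's filterByExpr (minimum total 15 and minimum count 10), leaving 14214 genes. TMM factors were used, and genotype was tested by the quasi-likelihood test of edgeR 4.0.16 in R 4.3.3, with Benjamini-Hochberg adjustment over all genes tested. The SE was taken as the size of the log2 fold change over the root of F. Log2 CPM used a prior count of 2. The study's cuffdiff needs reads and was not run. For single values and ratios, the exact permutation test over mice was two-sided, with a smallest p of 0.0286. Depth of 14688404 to 18585412 counts limits the precision of genes with few counts. Each library is a separate mouse, and all pairs of libraries differed by more than sampling noise (chi-square per degree of freedom 11.9 to 69.5). The scripts were tested on simulated data.

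The members and the gene lists were chosen with earlier results of these data known. All members and Nus1 are named, with called genes of the other lists, or the gene of lowest p where a list had none, and marker genes as needed. Slc27a5 and Cyp4a31 were named after values had been seen. Alternatives were no filter, a minimum of 10 counts in each mouse, RLE scaling, library totals alone, replicate or library numbers as a block, DESeq2 1.42.0, limma-voom (limma 3.58.1), a prior count of 0.5, and leaving out each mouse. The ratios of Cd36 to Lpl and Cav1 were added after values had been seen. Promoter sequences are from RefSeq, build GRCm38.p6. The study's mice on other diets and its single-cell data were not analysed here.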

Additional observations from a re-analysis of the deposited data

Results flagged for a closer look

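In 74 sets of 4 livers (each gene in each genotype, and the 3 ratios), the highest or lowest liver stood apart from the other 3 by Dixon's 95% criterion in 6, where chance gives about 1 in 20, or 3.7. Lpl was at a log2 CPM of 5.86 in N-LKO replicate 3, above the other N-LKO livers. Hsd17b11 was at a log2 CPM of 7.78 in N-LKO replicate 4, below them. Abhd5 was at a log2 CPM of 3.46 in WT replicate 2, below the other WT livers. Lipe was at a log2 CPM of 3.17 in WT replicate 1, above the other WT livers. Nus1 was at a log2 CPM of 6.36 in WT replicate 1, below the other WT livers and still above every N-LKO liver. The log2 ratio of Cd36 to Slc27a1 was 2.43 in N-LKO replicate 4, above the other N-LKO livers, and that liver had the lowest Slc27a1. Why these livers stood apart was not tested.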

How the results depend on the processing

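Cd36 and Nus1 kept their direction in every alternative run, and Cd36 kept its call in all 8 that used every mouse (log2 fold change 0.57 to 0.61). With each mouse left out it was 0.54 to 0.71 and lost the call in 6 of 8. Members called numbered 1 in edgeR, 5 with DESeq2, 2 with the replicate block (Cd36 higher and G0s2 lower, G0s2 at -1.03, adjusted p = 0.0229, and 0.0565 with the block by library number), 0 to 1 with a mouse left out, and 1 in the other 6 alternatives. With a mouse left out, the 1 was Cd36 without WT replicate 4 or N-LKO replicate 4, Fitm1 without WT replicate 1 and Fabp2 without N-LKO replicate 2. The ratios of Cd36 to Slc27a1, Slc27a2 and Slc27a4 stayed at 0.85, 0.65 and 0.33 with the replicate block, where p cannot go below 0.125, and ranged over 0.75 to 0.97, 0.57 to 0.77 and 0.24 to 0.41 with a mouse left out, where it cannot go below 0.0571, so these p-values say nothing about stability. Over the other 32 members, 496 of 512 values kept direction and side of the threshold, 7 newly passed it, and 9 changed sign. Those 9 were in 5 uncalled genes with a mouse left out, over ranges of -0.23 to 0.083 for Lipe, -0.23 to 0.13 for Plin4, -0.33 to 0.082 for Cidec, -0.035 to 0.14 for Fitm2 and -0.37 to 0.0054 for Hilpda. The causes were not tested. Library totals alone moved the median of all genes from -0.0033 to -0.037 and that of the members from -0.15 to -0.18. Replicate numbers did not pair the mice: same-numbered livers had residual correlations of -0.085 to 0.062, and those with the same library number -0.0092 to 0.17. Depth limits Fitm1, Hilpda, Fabp7 and Cav1, with 12 to 78 counts per liver.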

Other observations

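A pattern across mice was noticed after the values had been seen. WT replicates 3 and 4 were the pair of highest WT livers for 17 of the 33 members (51.5%), against 20.4% of all genes tested. N-LKO replicate 2 was the highest N-LKO liver for 15 of 33 (45.5%), against 28.2% of all genes. For 10 members (30.3%), against 5.78% of all genes, both held, namely Fabp1, Fabp2, Fabp7, Dbi, Acsl1, Acsl5, Plin2, Hsd17b11, Fitm2 and Mgll. Among the 16 PPAR target genes outside the members the same 3 counts were 8, 12 and 7 of 16. Some of these genes are known targets of PPARs in the liver, as background, and PPAR activity was not tested. No test was made of this pattern, since the livers were picked by the values. Cd36 did not follow it, since N-LKO replicates 1 and 2 were its highest N-LKO livers, at 67.5 and 67.3 CPM, and WT replicates 4 and 2 its highest WT livers, at 51.8 and 43.2 CPM.

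WT replicate 3 and N-LKO replicate 2 also had the highest summed level of 5 erythroid genes of their genotype, at 553 CPM and 295 CPM. The other livers were at 58.9 to 124 CPM in WT and at 58.0 to 99.1 CPM in N-LKO mice. WT replicate 4, of the WT pair above, was at 91.4 CPM, below WT replicate 2 at 124 CPM. Whether the erythroid level moves with the pattern above was not tested.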
